A study of Mus musculus with 9 samples.

Results

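The ephrin, Slit and netrin guidance genes are 40 mouse genes that encode the Eph receptors and their ephrin ligands, the Slit ligands and their Robo receptors, and the netrins and netrin-G proteins with the Dcc and Unc5 receptors. They were picked by gene symbol from the 56289 genes of the expression table. The rule uses no measured value, but the family was chosen with earlier results of these data known. There were 9 EphA and 5 EphB receptors, 5 ephrin-A and 3 ephrin-B ligands, 4 Robo receptors, 3 Slit ligands, 4 netrins, 2 netrin-G proteins, and 5 genes for the Unc5 and Dcc receptors. Of the 40, 35 were above 0 in at least 3 of the 9 libraries and were tested.

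Guidance proteins were first known from growing axons, which they attract or repel, and they also steer migrating neural crest cells, set tissue boundaries and shape blood vessels. Ephrins sit in the membrane and bind Eph receptor tyrosine kinases on neighbouring cells, and signals pass into both cells. Slits and netrins are secreted. Slits repel through Robo receptors, while netrins attract through Dcc and repel through Unc5 receptors.

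The libraries were made from poly(A) RNA of cultures described as RAW264.7, a mouse macrophage-like line. The study compared untreated cultures (Con), cultures given 20 ng/ml recombinant human TNF-α, an inflammatory cytokine, and cultures given the same TNF-α with 1.0 μg/ml of an extract of Wang Bi tablet (TNF-α+WBT, named WBP in the sample labels), each for 24 h and with 3 libraries per group. WBT is a herbal preparation used for rheumatoid arthritis, and the comparisons asked what TNF-α changed and what WBT changed in its presence. Levels are given in FPKM, fragments scaled to transcript length and library depth, which allows genes of different length to be compared, and the values of a group follow the replicate numbers 1 to 3.

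The depth was estimated as 20215000 to 26052500 fragments in the Con libraries, 18888000 to 22423000 in the TNF-α libraries and 16845000 to 19757000 in those of TNF-α+WBT. The markers of the labelled cell type were mostly absent. Of 15 macrophage genes only Cd14 exceeded 1 FPKM in all libraries, and 7, among them Ptprc, Spi1, Itgam and Adgre1, were listed at 0 in all of them. Of 12 fibroblast genes 10 exceeded 1 FPKM in all libraries, and so did 8 of 12 Schwann cell genes, 3 of 8 neuron genes and 0 of 8 endothelial genes, whose Emcn and Tie1 were listed at 0. The summed Schwann cell genes were at 925 to 982 FPKM in Con, 751 to 813 in TNF-α and 817 to 846 in TNF-α+WBT, and the summed neuron genes at 67.7 to 69.0, 28.8 to 33.0 and 34.6 to 37.0 FPKM. Tubb3 made up most of the neuron sum, at a mean of 55.3 FPKM in Con and 16.1 in TNF-α, and was called lower with Nefl, while Map2 was at 8.67 in Con and 12.4 in TNF-α (not called). The fibroblast sum was at 4817 to 5081, 5183 to 5441 and 5100 to 5226 FPKM, with Col1a1 and Col1a2 called higher and Pdgfrb and Postn lower in TNF-α vs. Con, and the macrophage sum at 5.96 to 7.36, 6.93 to 7.95 and 7.11 to 8.40 FPKM. The endothelial sum stayed at or below 0.415 FPKM. What these marker shifts have to do with the guidance genes was not tested, and fewer cells of a type cannot be told apart from less RNA per cell.

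In the untreated cultures the most abundant guidance transcript was Unc5b, a repulsive netrin receptor, at 59.1 ± 4.52 FPKM (SD, n = 3). Next came the ligands Ntn1, at 32.0 ± 2.30 FPKM, and Efnb2, at 32.0 ± 0.503 FPKM, which did not differ beyond their spread. The receptors Ephb4 (24.4 ± 0.890 FPKM) and Ephb3 (22.5 ± 1.70 FPKM) followed, and then Ephb6 (16.8 ± 0.814 FPKM), Epha2 (14.4 ± 0.189 FPKM) and Robo1 (11.9 ± 1.09 FPKM). From Efnb1 (9.30 ± 1.26 FPKM) down to Ntng2 (6.31 ± 0.234 FPKM) lay 9 genes whose neighbours in this order did not differ beyond their spread. In all, 22 of the 40 genes exceeded 1 FPKM in at least 1 group mean, each with at least 28.0 estimated fragments in every library. A further 14 stayed at or under 1 FPKM in every group mean. The remaining 4, Dcc, Epha6, Robo4 and Unc5d, were listed at 0 throughout, so the attractive netrin receptor Dcc was not detectable beside the abundant Unc5b. A count of 0 allows up to 3 fragments per library.

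**Figure D1:**
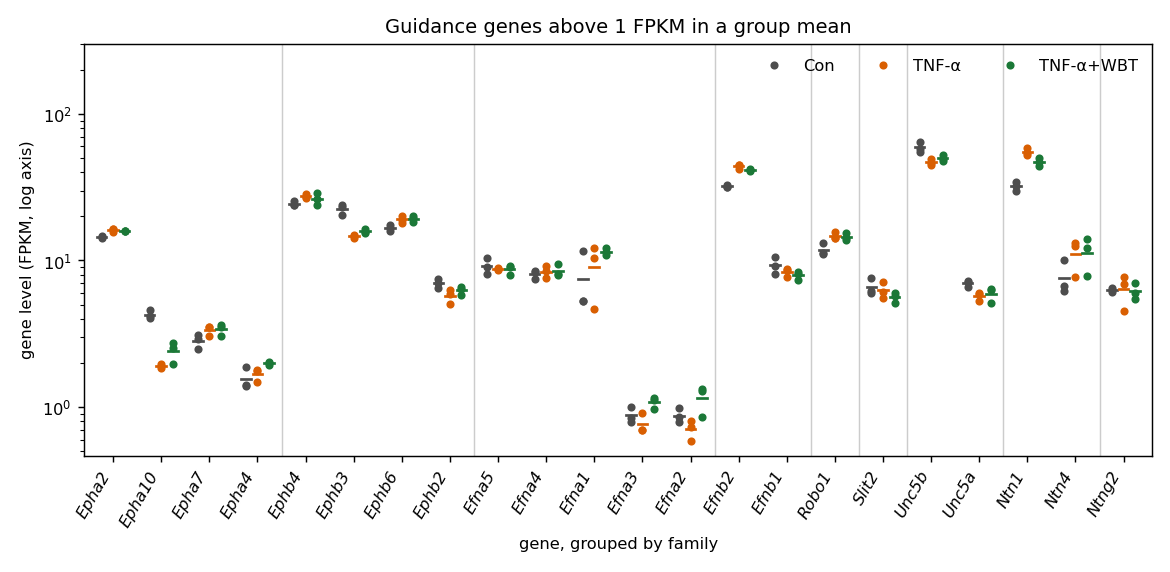
Level of each of the 22 guidance genes above 1 FPKM in a group mean, in FPKM on a log axis, with 1 point per library (grey Con, orange TNF-α, green TNF-α+WBT), a bar at each group mean and genes ordered by family. Unc5b, Ntn1 and Efnb2 sit highest, Epha10 and Ephb3 sit lower in both TNF-α groups than in Con, and Ntn1 and Efnb2 sit higher.

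In TNF-α vs. Con, 8 of the 35 guidance genes tested were called at a Benjamini-Hochberg adjusted p under 0.05 in limma (22.9%), where 4.86% of all 25417 genes were called. Upregulated were 4 genes, Efnb2, Ntn1, Robo2 and Epha2 (2.94% of all genes were called higher), and downregulated were 4, Ephb3, Unc5b, Epha10 and Epha5 (1.93% of all genes were called lower). Among the genes above 1 FPKM in a group mean 6 of 22 guidance genes were called, beside 8.33% of all such genes. The median log2 difference of the 35 was −0.01 and that of all genes 0.00. The thresholds of the study were a fold change over 2 at an unadjusted p under 0.05, with the fold taken here on FPKM + 0.1. By these, 3 guidance genes qualified (Epha10, Epha5 and Robo2), beside 2.42% of all genes. Adding 0.1 shrinks the fold of weak genes. Epha3, Slit3 and Slit1 had ratios of mean FPKM of 0.0643, 0.338 and 2.43, at limma p-values of 0.0066, 0.0465 and 0.0499. They did not qualify on the scale used here. The study itself named EPHA3 and EPHA5 among the hub nodes of a network built from its differential genes. Without TNF-α replicate 2, or without TNF-α replicate 3, the number called was 5, and the same 3 genes, Epha2, Epha5 and Unc5b, lost their call in each case.

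**Figure D2:**
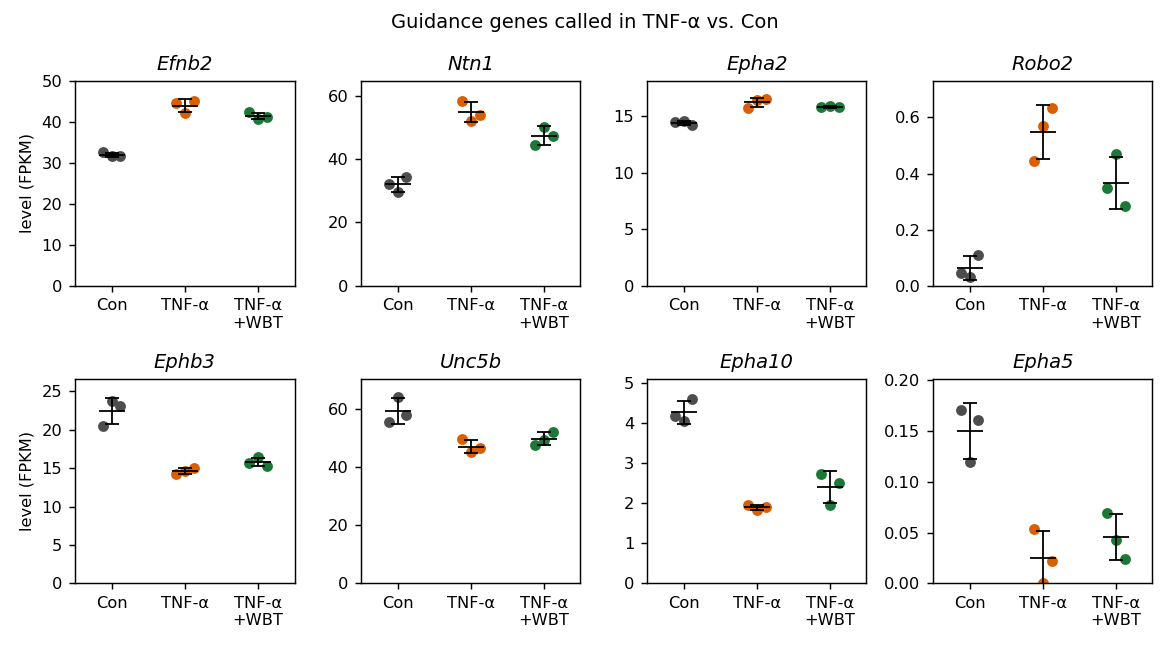
Levels in FPKM of the 8 guidance genes called in TNF-α vs. Con, with 1 point per library, a horizontal mark at each group mean and error bars of 1 SD (n = 3). In the upper row the TNF-α libraries lie above every Con library, and in the lower row below, and each TNF-α+WBT mean lies between the Con and TNF-α means. The genes were picked by the difference between Con and TNF-α in these same libraries, which favours such an order. In TNF-α+WBT vs. TNF-α 0 of the 35 guidance genes tested were called.

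Among the ligands of the Eph receptors only Efnb2 was called in TNF-α vs. Con. Efnb2 (ENSMUSG00000001300, chr8:8617434-8661242, minus strand, GRCm38) encodes ephrin-B2, a ligand of EphB receptors and of EphA4 that is best known from arterial endothelium. Its level was 32.6, 31.7 and 31.7 FPKM in Con, 44.8, 42.2 and 45.1 in TNF-α, and 42.4, 40.7 and 41.3 in TNF-α+WBT. Every library with TNF-α, with or without WBT, was above every Con library. Efnb2 rose by 0.46 ± 0.04 on the log2(FPKM + 0.1) scale (SE, n = 3 per group), 1.37-fold, with an adjusted p of 0.000195. One transcript, Efnb2-201, carried 99.5% of the gene's FPKM.

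The other ephrin genes were not called. Efnb1, another ligand of EphB receptors, was at 9.18, 10.6 and 8.10 FPKM in Con, 8.60, 8.76 and 7.77 in TNF-α, and 8.37, 7.31 and 8.11 in TNF-α+WBT. Efnb3, the third B ligand, stayed between 0.689 and 1.201 FPKM with overlapping groups. The ephrin-A ligands, which are held in the membrane by a lipid anchor and mostly bind EphA receptors, were steady for Efna4 and Efna5. Efna4 was at 8.38, 7.53 and 8.52 FPKM in Con, 7.56, 8.44 and 9.14 in TNF-α, and 7.91, 9.44 and 8.09 in TNF-α+WBT. Efna5 was at 10.4, 8.04 and 9.05 FPKM in Con, 8.84, 8.65 and 8.73 in TNF-α, and 9.11, 8.01 and 8.98 in TNF-α+WBT. In both genes the 3 groups overlapped.

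Efna1, whose product is known as a TNF-α-induced endothelial protein, did not follow the groups. It was at 5.30, 5.29 and 11.7 FPKM in Con, 4.69, 10.3 and 12.1 in TNF-α, and 11.4, 12.1 and 10.96 in TNF-α+WBT. Con replicates 1 and 2 and TNF-α replicate 1 were low and the other 6 libraries high, and the adjusted p of TNF-α vs. Con was 0.812. The same 3 libraries had the fewest estimated fragments of Efna1, 204, 169 and 147, against 271 to 353 in the other 6.

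Of the EphB receptors Ephb3 was the one called. Ephb3 (ENSMUSG00000005958, chr16:21204755-21223305, plus strand) encodes a receptor kinase for B ephrins that is known for positioning cells in the intestinal crypt. Its level was 20.5, 23.7 and 23.1 FPKM in Con, 14.2, 14.7 and 15.0 in TNF-α, and 15.6, 16.4 and 15.3 in TNF-α+WBT. No Con library overlapped either treated group. Ephb3 fell by 0.61 on the log2 scale (SE 0.06, 1.53-fold) with an adjusted p of 0.000617.

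The remaining B receptors were not called in limma on FPKM. Ephb2 was at 7.43, 6.53 and 7.04 FPKM in Con, 6.32, 5.06 and 5.88 in TNF-α, and 5.80, 6.56 and 6.38 in TNF-α+WBT (adjusted p of TNF-α vs. Con 0.177). Ephb4, a receptor for ephrin-B2 known from veins, was at 23.9, 25.5 and 23.9 FPKM in Con, 26.7, 27.2 and 28.5 in TNF-α, and 26.1, 28.7 and 23.9 in TNF-α+WBT (adjusted p 0.246). Ephb6, which lacks kinase activity, was at 16.8, 17.6 and 16.0 FPKM in Con, 18.0, 20.3 and 18.9 in TNF-α, and 18.2, 19.5 and 20.2 in TNF-α+WBT (adjusted p 0.175). In these 3 genes the TNF-α libraries did not overlap the Con libraries, with Ephb2 on the lower side and Ephb4 and Ephb6 on the higher side, but the differences missed the threshold. Ephb1 had no level above 0.0382 FPKM. Summed over the 5 B receptors the level was 68.6 to 73.3 FPKM in Con, 65.3 to 68.3 in TNF-α and 65.7 to 71.1 in TNF-α+WBT.

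Epha10 (ENSMUSG00000028876, chr4:124880899-124917800, plus strand) showed the steepest drop among the genes above 1 FPKM. It encodes an Eph receptor whose kinase domain is thought to be inactive. Its level was 4.18, 4.04 and 4.59 FPKM in Con, 1.96, 1.84 and 1.90 in TNF-α, and 2.73, 1.96 and 2.52 in TNF-α+WBT. All 6 treated libraries lay below all Con libraries. Epha10 fell by 1.13 on the log2 scale (SE 0.13, 2.19-fold) with an adjusted p of 0.00165. Both main transcripts moved alike, Epha10-202, which is protein coding, from a mean of 2.45 to 1.14 FPKM and Epha10-203, a processed transcript of 705 bases, from 1.39 to 0.623 FPKM. The gene shares 79 exonic bases with the antisense gene 1700125G02Rik (mean 0.276 FPKM), whose reads cannot be told apart from it where the strand is not used.

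Epha5 (ENSMUSG00000029245, chr5:84054761-84417382, minus strand), a receptor best known from the developing brain, was called from very few fragments. Its level was 0.171, 0.119 and 0.160 FPKM in Con, 0.0535, 0 and 0.0217 in TNF-α, and 0.0696, 0.0431 and 0.0242 in TNF-α+WBT. This corresponds to 16.7 to 23.6 estimated fragments per Con library, 0 to 6 per TNF-α library and 2 to 4.59 per TNF-α+WBT library. The groups with TNF-α did not overlap Con. Epha5 fell by 1.02 on the log2(FPKM + 0.1) scale (SE 0.21) with an adjusted p of 0.0317, a scale that understates the change of so low a gene. The adjusted p was 0.1002 without Con replicate 1, 0.0533 without Con replicate 2, 0.102 without Con replicate 3, 0.110 without TNF-α replicate 2, 0.102 without TNF-α replicate 3 and 0.0555 without TNF-α+WBT replicate 2. With a pseudocount of 0.01 in place of 0.1 the log2 difference was −2.54 and the adjusted p 0.101, and with a pseudocount of 1 it was −0.17 and the adjusted p 0.0212.

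Epha3, a close relative that binds A ephrins, was seen in the same few-fragment range. It had 5, 5 and 4 estimated fragments in the Con libraries, 0, 1 and 0 in the TNF-α libraries and 2, 0 and 0 with WBT added. The treated groups lay below Con without overlap, at or under the 3 fragments that a count of 0 allows, and the adjusted p of TNF-α vs. Con was 0.0969.

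Epha2 (ENSMUSG00000006445, chr4:141301240-141329384, plus strand), the ephrin-A1 receptor known from epithelia and many tumours, was the A receptor with the highest level. It was at 14.5, 14.6 and 14.2 FPKM in Con, 15.7, 16.5 and 16.5 in TNF-α, and 15.8, 15.9 and 15.8 in TNF-α+WBT. The Con libraries were the lowest 3 of the 9, within a narrow range. Epha2 rose by 0.17 ± 0.04 on the log2 scale (1.12-fold) with an adjusted p of 0.0468, close to the threshold, and leaving out any 1 of the 9 libraries raised it above the threshold, to 0.0603 (without TNF-α replicate 1) through 0.153 (without TNF-α replicate 3). It was also 0.126 after median centring and 0.0792 after quantile normalization.

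Epha4 and Epha7, which bind ephrins of the A class and, for Epha4, of the B class as well, were not called. Epha4 was at 1.38, 1.42 and 1.87 FPKM in Con, 1.80, 1.76 and 1.48 in TNF-α, and 2.03, 1.93 and 2.00 in TNF-α+WBT. Epha7 was at 3.08, 2.49 and 2.89 FPKM in Con, 3.08, 3.53 and 3.53 in TNF-α, and 3.51, 3.05 and 3.61 in TNF-α+WBT. For Epha4 the TNF-α and Con ranges overlapped while all TNF-α+WBT libraries were above both, and for Epha7 the TNF-α+WBT range overlapped both others. Epha1, which shares 236 exonic bases with the opposite-strand gene Zyx (mean 101 FPKM), was between 0.0839 and 0.193 FPKM, and Epha8 was no higher than 0.0201 FPKM. The 9 EphA genes together stood at 22.8 to 23.9 FPKM in Con, 22.7 to 23.7 in TNF-α and 23.1 to 24.3 in TNF-α+WBT, so the drop of Epha10 left their sum in the same range.

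The netrin pathway showed a ligand that rose and a receptor that fell. Ntn1 (ENSMUSG00000020902, chr11:68209364-68400823, minus strand) encodes netrin-1, the founding secreted netrin. Its level was 32.0, 29.7 and 34.3 FPKM in Con, 58.4, 52.1 and 53.9 in TNF-α, and 44.2, 50.2 and 47.3 in TNF-α+WBT. The 3 groups did not overlap one another, with TNF-α+WBT in the middle. Ntn1 rose by 0.77 ± 0.07 on the log2 scale (1.71-fold) with an adjusted p of 0.000360. The long transcript Ntn1-201 carried 77.7% of the gene's FPKM and went from 26.6 ± 3.58 in Con to 43.6 ± 2.77 in TNF-α, and the short Ntn1-203, of 944 bases, from 5.41 ± 2.09 to 11.2 ± 0.913 FPKM.

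Unc5b (ENSMUSG00000020099, chr10:60762593-60831581, minus strand) encodes a receptor through which netrin-1 repels cells. Its level was 55.3, 64.1 and 57.8 FPKM in Con, 49.4, 44.9 and 46.5 in TNF-α, and 47.7, 49.3 and 52.1 in TNF-α+WBT. Con was above both other groups without overlap. Unc5b fell by 0.33 on the log2 scale (SE 0.06, 1.25-fold) with an adjusted p of 0.0209. The adjusted p was 0.0588 without Con replicate 3, 0.0808 without TNF-α replicate 2 and 0.0773 without TNF-α replicate 3. Unc5a, a receptor of the same family, was at 7.20, 7.18 and 6.55 FPKM in Con, 5.91, 5.31 and 6.02 in TNF-α, and 6.35, 5.16 and 6.30 in TNF-α+WBT. Its Con libraries were also the highest 3, but the adjusted p of TNF-α vs. Con was 0.193. Unc5c had at most 1 estimated fragment in any library and was not tested.

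Ntn4, a netrin of basement membranes, varied in FPKM among the libraries of each group. The gene was at 10.1, 6.68 and 6.17 FPKM in Con, 12.5, 13.2 and 7.73 in TNF-α, and 13.97, 7.81 and 12.2 in TNF-α+WBT, with an adjusted p of 0.426 for TNF-α vs. Con. The full-length transcript Ntn4-201 stayed between 5.00 and 7.48 FPKM in all 9 libraries. The short Ntn4-202, of 582 bases, was at 5.10 FPKM in Con replicate 1, 5.81 and 6.72 in TNF-α replicates 1 and 2, and 8.25 and 5.44 in TNF-α+WBT replicates 1 and 3, and at or below 0.333 FPKM in the other 4 libraries. The estimated fragments of the gene, not scaled for depth, were 552, 515 and 449 in Con, 588, 616 and 514 in TNF-α, and 470, 542 and 467 in TNF-α+WBT. Limma-voom on the estimated fragments, an alternative chosen after the data were seen, gave Ntn4 a log2 difference of 0.30 ± 0.06 and an adjusted p of 0.0146.

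Of the remaining netrin genes, Ntng2, a membrane-anchored netrin-G, was at 6.53, 6.06 and 6.32 FPKM in Con, 4.51, 7.70 and 6.92 in TNF-α, and 5.50, 7.03 and 5.97 in TNF-α+WBT, with overlapping groups, and shares 558 exonic bases with 6530402F18Rik on the same strand (mean 2.93 FPKM). Ntn5, which shares 519 exonic bases with the opposite-strand gene Sec1 (mean 0.535 FPKM), lay between 0.1001 and 0.387 FPKM, Ntn3 was no higher than 0.0420 FPKM and Ntng1 no higher than 0.0226 FPKM. None of these 4 was called. Summed over the 4 netrins the level was 36.5 to 42.5 FPKM in Con, 61.9 to 71.0 in TNF-α and 58.2 to 59.6 in TNF-α+WBT, while the Unc5 and Dcc receptors together were at 62.5 to 71.2, 50.3 to 55.4 and 54.0 to 58.4 FPKM.

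In the Slit and Robo families the call fell on a weakly detected receptor. Robo2 (ENSMUSG00000052516, chr16:73891839-74411825, minus strand) encodes a Slit receptor known from axon crossing and kidney development. Its level was 0.0456, 0.0323 and 0.110 FPKM in Con, 0.444, 0.570 and 0.632 in TNF-α, and 0.347, 0.469 and 0.284 in TNF-α+WBT. These values rested on 6 to 7.98 estimated fragments per Con library, 34.0 to 39.7 per TNF-α library and 22.5 to 29.6 per TNF-α+WBT library, and neither treated group overlapped Con. Robo2 rose by 2.01 ± 0.27 on the log2(FPKM + 0.1) scale (4.04-fold) with an adjusted p of 0.00323. This scale understates the change of so low a gene, and the ratio of the group means in FPKM was 8.74. With a pseudocount of 0.01 the log2 difference was 3.07 and with a pseudocount of 1 it was 0.54, both called. The fragments were spread over several annotated transcripts, none of which held more than 20.8% of the gene's FPKM.

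Robo1, the abundant Slit receptor here, was at 11.3, 11.1 and 13.1 FPKM in Con, 14.2, 14.1 and 15.8 in TNF-α, and 15.4, 14.1 and 13.8 in TNF-α+WBT. The Con libraries were the lowest 3, and the adjusted p of TNF-α vs. Con was 0.0694. It was called without Con replicate 3, where genes under a mean of 1 FPKM were left out, and in limma-voom on estimated fragments (adjusted p 0.00536). Slit2, the main Slit ligand in these cultures, was at 7.58, 5.96 and 6.21 FPKM in Con, 7.17, 6.08 and 5.52 in TNF-α, and 5.76, 5.11 and 6.02 in TNF-α+WBT, with overlapping Con and TNF-α ranges. Slit1 had 2.99 to 13.0 estimated fragments per library, Slit3 1.69 to 15.0 and Robo3 at most 1. None of these was called.

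**Figure D3:**
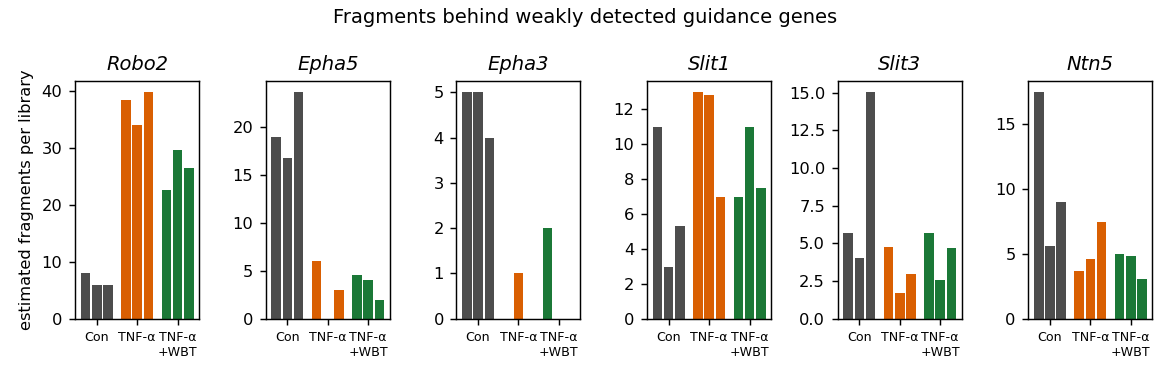
Estimated fragments per library, not scaled for depth, of 6 guidance genes that stayed under 1 FPKM, with 1 bar per library in replicate order and a separate axis from 0 for each gene. Robo2 has 6 to 7.98 fragments in Con and 34.0 to 39.7 in TNF-α, Epha5 and Epha3 have more in Con than in either treated group, and Slit1, Slit3 and Ntn5 overlap between Con and TNF-α.

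RefSeq promoters, 250 bases before to 50 after a start on GRCm38.p6, were at hand for 35 of the 40 genes, and for 7 of the 8 called in TNF-α vs. Con (not Ntn1). Shown are those of the ligand that rose and of the 2 abundant receptors that fell, each 5′ to 3′ on the strand of the gene, with the GC box, the letters GGGCGG on either strand, in capitals. The Efnb2 window is chr8:8661193-8661492 on the minus strand, that of Ephb3 is chr16:21204545-21204844 on the plus strand and that of Unc5b is chr10:60831532-60831831 on the minus strand.
Efnb2: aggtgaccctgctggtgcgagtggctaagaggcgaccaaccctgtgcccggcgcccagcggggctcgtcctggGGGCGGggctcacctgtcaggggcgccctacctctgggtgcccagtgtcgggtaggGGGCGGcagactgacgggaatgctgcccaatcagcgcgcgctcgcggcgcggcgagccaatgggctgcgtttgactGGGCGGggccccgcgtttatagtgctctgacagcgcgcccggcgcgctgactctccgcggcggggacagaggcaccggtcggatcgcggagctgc
Ephb3: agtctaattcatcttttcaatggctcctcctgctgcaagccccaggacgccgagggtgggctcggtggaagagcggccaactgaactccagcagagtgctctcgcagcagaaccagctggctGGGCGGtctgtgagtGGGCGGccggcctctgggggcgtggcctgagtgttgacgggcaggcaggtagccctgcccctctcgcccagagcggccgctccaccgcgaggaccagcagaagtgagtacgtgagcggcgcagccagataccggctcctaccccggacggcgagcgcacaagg
Unc5b: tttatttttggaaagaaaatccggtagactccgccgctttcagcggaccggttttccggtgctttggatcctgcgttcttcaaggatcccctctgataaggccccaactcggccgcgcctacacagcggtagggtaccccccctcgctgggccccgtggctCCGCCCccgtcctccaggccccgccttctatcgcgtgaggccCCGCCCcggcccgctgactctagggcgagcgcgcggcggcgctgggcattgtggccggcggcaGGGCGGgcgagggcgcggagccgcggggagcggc
All 3 windows are rich in G and C, at 72.3% in Efnb2, 66.7% in Ephb3 and 69.7% in Unc5b, beside a median of 52.7% over 32851 promoters. The GC box was found 3 times in Efnb2, 2 times in Ephb3 and 3 times in Unc5b. It was present in 6 of the 9 promoters of the called genes, all but the 3 of Robo2, in 27 of the 40 promoters of the guidance genes, and in 35.7% of all promoters. The AP-1 letters TGANTCA, searched on both strands, were in no guidance gene promoter and in 7.81% of all promoters. The NF-κB consensus, which can overlap a GC box by its run of G, was in the promoters of Efna2, Ephb1 and Ephb2, none of them called, and in 4.51% of all promoters. These matches describe the letters of the windows alone.

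In TNF-α+WBT vs. TNF-α, 0 of the 35 guidance genes were called by adjusted p in limma, where 1 of all 25417 genes was called (0.00393%). At an unadjusted limma p under 0.05 there were 4 of the 35 guidance genes, Efna2, Efna3, Epha10 and Ntn1, beside 1605 of all 25417 genes. Limma-voom on estimated fragments also called 0, and there the 4 genes at an unadjusted p under 0.05 were Efna2, Efnb2, Epha10 and Ntn1, without Efna3. The thresholds of the study gave 0 guidance genes, beside 1.12% of all genes. The median log2 difference of the 35 genes was 0.02 and that of all genes 0.00.

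In FPKM the TNF-α+WBT libraries of Efna2, Efna3, Epha10 and Ntn1 lay apart from the TNF-α libraries, Epha10 only by 1.965 against 1.955 FPKM. So did those of Epha4 and Ephb3, at unadjusted limma p-values of 0.160 and 0.106. Without any difference, 3 against 3 libraries lie wholly apart with a probability of 0.1. The share of all genes that did so was not counted, so lying apart is no result about these genes. Efna2, Efna3, Epha10 and Ntn1 were also picked by their p-value in the same libraries. Efna2 was at 0.850, 0.791 and 0.982 FPKM in Con, 0.7998, 0.586 and 0.733 in TNF-α, and 1.33, 0.853 and 1.29 in TNF-α+WBT, with a log2 difference between the latter groups of 0.63 (95% interval 0.13 to 1.13) and an adjusted p of 0.703. Efna3 was at 1.01, 0.790 and 0.836 FPKM in Con, 0.695, 0.692 and 0.914 in TNF-α, and 0.9748, 1.11 and 1.16 in TNF-α+WBT, with a log2 difference of 0.45 (0.03 to 0.88) and an adjusted p of 0.766. In estimated fragments, however, Efna3 had 34.6, 36.6 and 40.8 in TNF-α and 36.7, 33.5 and 29.1 in TNF-α+WBT, with overlap, and limma-voom gave a log2 difference of 0.02 ± 0.17 (adjusted p 0.994). Its short transcript Efna3-203, of 742 bases, stood at 0.184, 0.572 and 0.623 FPKM with WBT added and had a value of 0 in each library of TNF-α alone. Efna2 and Efna3 are A ephrins near the 1 FPKM line, with 28.0 to 52.0 and 29.1 to 47.1 estimated fragments per library, and Efna3 shares 344 exonic bases with the antisense gene Gm15998 (mean 1.88 FPKM). The difference was 0.31 (0.01 to 0.62) for Epha10, with an adjusted p of 0.771, and −0.21 (−0.37 to −0.05) for Ntn1, with an adjusted p of 0.681.

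For the other genes called in TNF-α vs. Con, the TNF-α+WBT libraries differed from the TNF-α libraries, which both comparisons share, by less than the test could call. The log2 difference was −0.08 (95% interval −0.17 to 0.00) for Efnb2, −0.03 (−0.12 to 0.05) for Epha2 and −0.48 (−1.10 to 0.13) for Robo2. It was 0.11 (−0.03 to 0.25) for Ephb3, 0.08 (−0.06 to 0.22) for Unc5b and 0.23 (−0.26 to 0.72) for Epha5. The widest of these 6 intervals were those of Robo2 and Epha5, the genes with the fewest fragments.

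**Figure D4:**
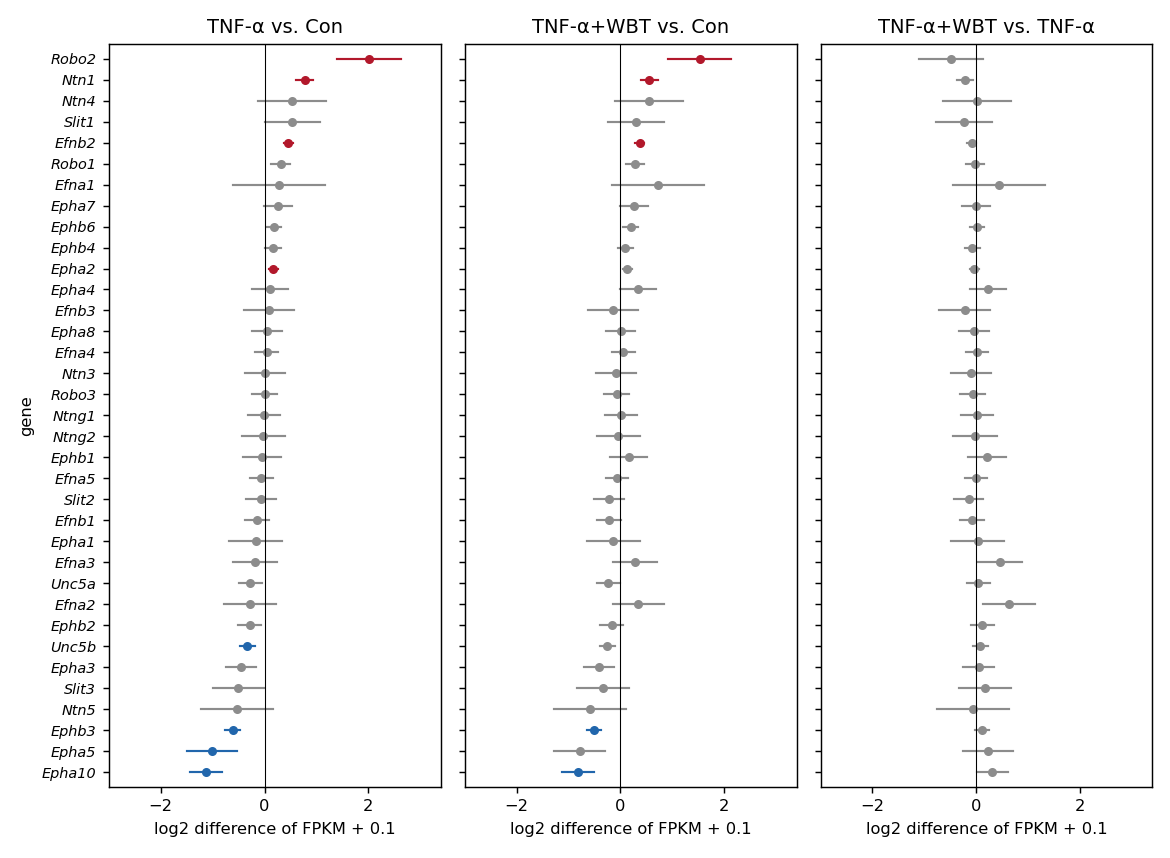
Log2 difference of FPKM + 0.1 for the 35 guidance genes tested, in TNF-α vs. Con, TNF-α+WBT vs. Con and TNF-α+WBT vs. TNF-α, as points with 95% intervals from limma, in the order of the first panel, with called genes in red (higher) or blue (lower). The first panel holds 8 called genes, the second 5 and the third 0, and the panels share libraries.

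With TNF-α+WBT set against Con, 5 guidance genes were called (14.3%), beside 3.71% of all genes. Efnb2 (log2 difference 0.37 ± 0.04, adjusted p 0.000841), Ntn1 (0.56 ± 0.07, adjusted p 0.00282) and Robo2 (1.53 ± 0.27, adjusted p 0.0164) were higher, beside 2.31% of all genes called higher. Ephb3 (−0.50 ± 0.06, adjusted p 0.00251) and Epha10 (−0.81 ± 0.13, adjusted p 0.0112) were lower, beside 1.4% of all genes called lower. Of these, 4 exceeded 1 FPKM in a group mean, where 6.4% of all such genes were called. By the thresholds of the study, with the fold on FPKM + 0.1, only Robo2 qualified, beside 2.29% of all genes. Epha5 and Epha3 had ratios of mean FPKM of 0.304 and 0.1575, at limma p-values of 0.00563 and 0.0118, and did not qualify on that scale. Epha10 was not called without Con replicate 3 (adjusted p 0.0544), and Robo2 was not called without Con replicate 1 (0.0657), Con replicate 2 (0.0615), TNF-α+WBT replicate 1 (0.0547) or TNF-α+WBT replicate 2 (0.0611). Epha2, Epha5 and Unc5b had adjusted p-values of 0.126, 0.1003 and 0.0796 in this comparison, which shares its Con libraries with TNF-α vs. Con.

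The signalling partners of the guidance receptors were described from a list of 74 genes, of which 72 were tested. In TNF-α vs. Con 8 were called (11.1%, beside 4.86% of all genes tested), 3 of them higher and 5 lower (2.94% and 1.93% of all genes), with a median log2 difference of −0.01 over the 72. Gpc1, a glypican whose heparan sulfate binds Slits, fell from 201 ± 4.31 to 117 ± 3.11 FPKM (log2 difference −0.78 ± 0.03, adjusted p 4.44e-06). Pdzrn3, a ubiquitin ligase with PDZ domains, fell from 64.3 ± 2.60 to 49.6 ± 0.748 FPKM (adjusted p 0.000625), and Arhgap39, a GTPase-activating protein that binds Robo receptors, from 12.4 ± 0.525 to 9.03 ± 0.274 FPKM (adjusted p 0.00365). Rgs3, whose PDZ form binds the tail of B ephrins, rose from 12.8 ± 1.67 to 19.8 ± 1.32 FPKM (adjusted p 0.00697).

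Ablim1, an actin-binding LIM protein related to a worm protein that acts downstream of netrin receptors, rose from 12.9 ± 1.09 to 20.3 ± 2.04 FPKM (adjusted p 0.00727). The Src family kinase Lyn rose from 4.03 ± 0.0411 to 5.29 ± 0.354 FPKM (adjusted p 0.0310), and Adam10, a protease that sheds ephrins, fell from 56.8 ± 1.85 to 49.6 ± 1.47 FPKM (adjusted p 0.0404). Without Con replicate 1, Con replicate 2 or TNF-α replicate 2 the number called was 5, with Adam10 and Lyn among those lost. Over the 9 models with 1 library left out Adam10 lost its call in 7, all but those without TNF-α+WBT replicate 1 or 2, with an adjusted p of up to 0.136 (without Con replicate 3), and Lyn in 6, all but those without TNF-α replicate 3 or TNF-α+WBT replicate 1 or 2, with an adjusted p of up to 0.113 (without TNF-α replicate 2). Against TNF-α alone, TNF-α+WBT had 0 of the 72 called by adjusted p in limma and 0 called in limma-voom. There 3 of the 72 had an unadjusted limma p under 0.05, beside 1605 of all 25417 genes. Against Con 6 were called (8.33%, beside 3.71% of all genes), 2 higher (Ablim1 and Rgs3, beside 2.31% of all genes) and 4 lower, among them Gpc1, Pdzrn3 and Arhgap39 (1.4% of all genes). Arhgap39 was close to the threshold there (adjusted p 0.0383) and lost its call in 8 of the 9 models with 1 library left out, all but that without TNF-α+WBT replicate 2, with an adjusted p of up to 0.126. It was also not called after median centring, without the intensity trend, with the replicate number as a block or in the model of the compared groups alone. Ablim1 was not called without Con replicate 1 (adjusted p 0.0522).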

How the data were processed

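Poly(A) RNA of 9 cultures was sequenced as paired-end libraries, 3 each of Con, TNF-α and TNF-α+WBT, which the study describes as biological replicates. The authors aligned reads with HISAT2, estimated expression with StringTie and deposited FPKM values for 56289 genes and 144726 transcripts. Versions, genome build and strand setting are not given in the sources used here. Depth, which FPKM values do not state, was worked out from the smallest step between values of 10717 genes with a single transcript over 1000 bases, with between 52.1% and 56.3% of low values per library within 0.1 of a whole number, so fragments are approximate and limits cover counting error only.

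Symbols, positions and transcripts were taken from GENCODE M21 (GRCm38), which named 55144 of the genes. The members, the partner and marker lists and the tests were chosen with earlier results of these data known. The 25417 genes with an FPKM above 0 in 3 or more libraries were compared on log2(FPKM + 0.1) in 1 limma model over all 9 libraries (lmFit, eBayes with an intensity trend, Benjamini-Hochberg adjustment over all genes tested). An exact permutation test of 3 against 3 libraries cannot give a two-sided p below 0.1. All members were accounted for, and every library's value is given for those above 1 FPKM in a group mean or called. Partners were named where called, except 1 that is not reported here. Alternatives covered the pseudocount, the filter, the trend, the scaling, a model of the compared groups alone, the replicate number as a block, the call rule, each library left out and limma-voom on estimated fragments, the last chosen after the data were seen. Software was limma 3.58.1 in R 4.3.3, and pandas 2.3.3, scipy 1.17.1, numpy 2.4.6 and matplotlib 3.10.9 in Python 3.11.15.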

Additional observations from a re-analysis of the deposited data

How the results depend on the processing

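The number of guidance genes called in TNF-α vs. Con, 8 as reported, was 5 in a model of the 2 groups alone and 5 to 7 without 1 replicate. By the thresholds of the study, with the fold on FPKM + 0.1, it was 3. In TNF-α+WBT vs. Con, 5 as reported, it was 1 by those thresholds and 4 to 5 without 1 replicate. In TNF-α+WBT vs. TNF-α it was 0 under each of the alternatives run. Of the signalling partners, 8 as reported in TNF-α vs. Con, 5 were called in the model of the 2 groups alone, 1 by the thresholds of the study, 13 in limma-voom on estimated fragments and 5 to 9 without 1 replicate. In TNF-α+WBT vs. Con, 6 as reported, 1 was called by those thresholds, 11 in limma-voom and 4 to 6 without 1 replicate. With the replicate number as a block, the replicate block fit called 6 guidance genes in TNF-α vs. Con (not Epha2 and Unc5b), 4 in TNF-α+WBT vs. Con (not Robo2) and 0 in TNF-α+WBT vs. TNF-α, and 5, 4 and 0 partners. The numbers were not taken to pair the libraries, since 0 of 9 same-numbered pairs deviated together at a correlation over 0.1 (range −0.03 to 0.0315) and 4 of 9 libraries correlated best with their own number. Limma-voom called 12 guidance genes in TNF-α vs. Con, adding Epha3, Ephb2, Ntn4 and Robo1, and 7 in TNF-α+WBT vs. Con, adding Ntn4, Robo1 and Unc5b and without Ntn1 (log2 difference 0.39, adjusted p 0.0547). Of 244 log2 differences of called genes under alternatives, 0 changed sign, 207 stayed called and 37 were no longer called. Where an alternative kept the compared libraries and their values, as for the filter or the trend, the sign could not change. The cause of the changes in calls was not tested, beyond the smaller number of libraries in the models that leave some out. Low fragment numbers limit Robo2, Epha5 and Epha3.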

Other observations

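The transcripts of Slit2 were assigned differently in 2 libraries. Slit2-216, a protein-coding transcript of 7734 bases, was at 5.53 FPKM in Con replicate 1 and 4.63 FPKM in TNF-α replicate 1 and was listed at 0 in the other 7 libraries. In the same 2 libraries the longer Slit2-208, of 9960 bases, was at 0.622 and 0.523 FPKM, while it lay between 4.22 and 5.24 FPKM in the other 7. The level of the gene was the highest of all libraries in Con replicate 1, at 7.58 FPKM, followed by TNF-α replicate 1, at 7.17 FPKM. These 2 libraries were also 2 of the 3 in which Efna1 was low.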
